A study of Mus musculus with 8 samples.

Results

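Ifit1, Ifit2 and Ifit3 are the 3 members of the IFIT family on the nCounter mouse inflammation panel, and they were chosen by symbol as 3 of the 248 genes measured. The nCounter platform counts fluorescently barcoded probes bound to each transcript, without amplification. Conjunctival RNA was measured in 4 mice kept under desiccating stress (DS) and given tributyrin, a butyrate-releasing triglyceride, and in 4 mice kept under DS and given PBS vehicle. All 8 were female C57BL/6J mice, labelled as 8 weeks old and, by the study's methods, 8 to 12 weeks old at sacrifice. Both groups spent 5 days in dry, moving air with tear secretion blocked by subcutaneous scopolamine hydrobromide, so that the vehicle mice carry the stress as well. Tributyrin mice were gavaged daily with 0.5 mM tributyrin and vehicle mice with PBS. Mice are numbered as in their labels, 9 to 12 with tributyrin and 5 to 8 with vehicle. An unstressed group was not analysed here.

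IFIT genes encode interferon-induced proteins with tetratricopeptide repeats, a helical fold that binds RNA or other proteins. Type I interferon bound to its receptor activates a complex of STAT proteins with IRF9, which binds interferon-stimulated response elements in promoters and switches on the IFIT genes together with many others. IFIT1 binds the 5′ ends of viral RNA that lack the cap methylation of host mRNA, human IFIT2 binds RNA rich in adenine and uracil, and human IFIT3 associates with IFIT1. The conjunctiva is a mucosa in contact with microbes, and its epithelium and resident immune cells can both respond to interferon.

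The 3 genes lie in 1 cluster on chromosome 19, in the order Ifit2, Ifit3, Ifit1bl1, Ifit3b, Ifit1bl2 and Ifit1 (GRCm38.p6), and the 3 relatives between them were not on the panel. The 200 bases before the starts of Ifit1 and Ifit3 are shown since both hold the core of an interferon-stimulated response element, which reads TTTC, any 2 bases and TTTC again on the strand of the gene and is in capitals below. Both are RefSeq promoter sequences of GRCm38.p6, plus strand, Ifit1 from chr19:34640689-34640888 and Ifit3 from chr19:34583329-34583528.
Ifit1: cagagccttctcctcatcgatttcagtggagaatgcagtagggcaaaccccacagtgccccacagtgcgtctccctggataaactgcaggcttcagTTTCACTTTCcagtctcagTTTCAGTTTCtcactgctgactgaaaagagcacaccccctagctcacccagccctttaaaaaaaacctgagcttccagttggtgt
Ifit3: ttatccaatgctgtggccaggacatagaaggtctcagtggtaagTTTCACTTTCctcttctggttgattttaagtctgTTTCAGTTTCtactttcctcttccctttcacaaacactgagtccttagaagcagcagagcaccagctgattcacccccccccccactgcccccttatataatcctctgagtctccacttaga
The search covered both strands (TTTC, NN, TTTC and its reverse complement GAAA, NN, GAAA) in a window from 250 bases before to 50 bases after each annotated start. The core stood at positions -104 to -95 and -85 to -76 from the start of Ifit1, and at -156 to -147 and -122 to -113 from the start of Ifit3. Neither of the 2 annotated starts of Ifit2 had a match in its window, which says only that these letters are not in these windows. Of all 32851 windows of this length, 1131 (3.44%) held at least 1 match and 74 (0.225%) held 2 or more. Among the panel genes with a window, 13 of 185 (7.03%) had a match, and among the other interferon genes considered below, 5 of 17 (29.4%). A match describes the sequence and is not a measured binding site. The Ifit1 window overlaps that of Ifit1bl2, which starts on the opposite strand. The windows of Ifit3 and its unmeasured relative Ifit3b were identical at 259 of 274 aligned bases (94.5%), and the table cannot show whether the Ifit3 probe also binds Ifit3b transcripts.

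Ifit1 and Ifit3 were lower in every tributyrin mouse than in any vehicle mouse, a pattern that 10 of the 248 genes (4.03%) had, while the Ifit2 values of the groups overlapped. Ifit1 had 988, 967, 987 and 825 normalized counts in tributyrin mice 9, 10, 11 and 12, against 2833, 1917, 3019 and 1361 in vehicle mice 5, 6, 7 and 8. The tributyrin mice lay within a narrow band and the vehicle mice were spread, with mouse 7 highest and mouse 8 closest to the tributyrin mice. Ifit3 had 8169, 6999, 7542 and 7867 normalized counts in tributyrin mice 9 to 12, against 13407, 12500, 12510 and 9179 in vehicle mice 5 to 8. Vehicle mice 5, 6 and 7 were close together here, and vehicle mouse 8 again had the lowest vehicle value, still above the highest tributyrin value. Ifit2 had 608, 619, 579 and 526 normalized counts in tributyrin mice 9 to 12, against 689, 521, 1026 and 479 in vehicle mice 5 to 8. All 4 tributyrin values of Ifit2 lay inside the range of the vehicle values, which vehicle mouse 7 extended upward.

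**Figure D1:**
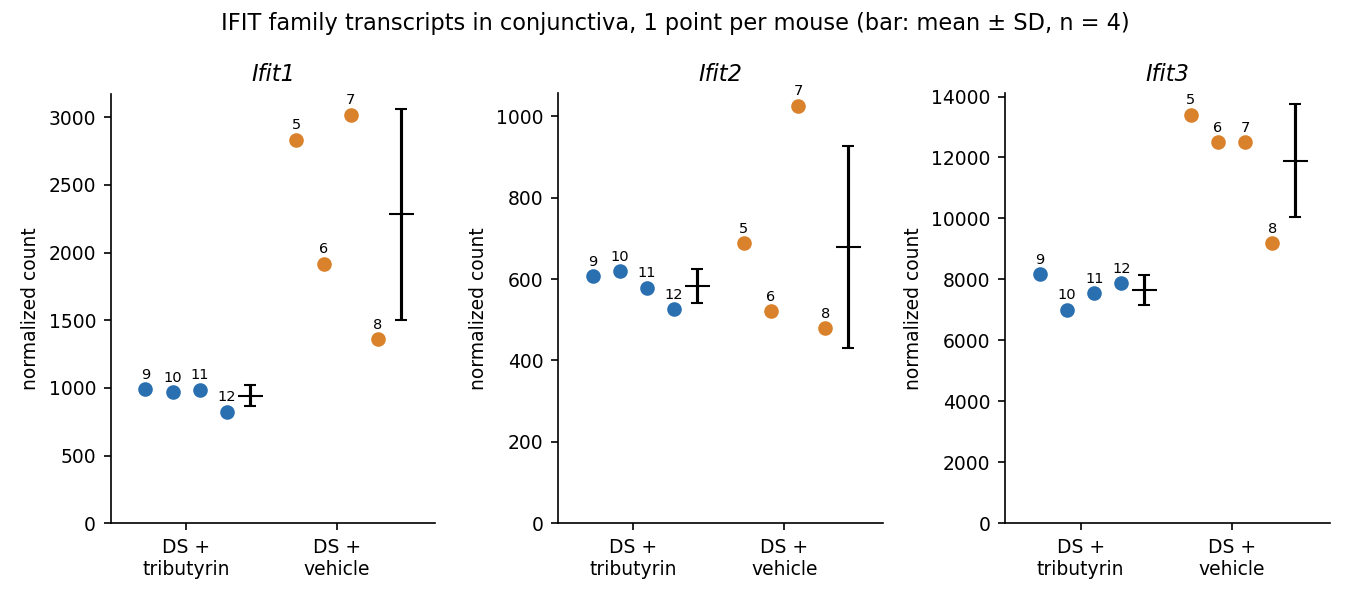
Normalized counts of Ifit1, Ifit2 and Ifit3 (y axes, linear and from 0) in 4 tributyrin mice (blue) and 4 vehicle mice (orange), 1 numbered point per mouse, with the mean ± SD of each group (n = 4) in black. For Ifit1 and Ifit3 all blue points lie below all orange points, with Ifit1 at 825 to 988 in tributyrin mice and 1361 to 3019 in vehicle mice, while for Ifit2 they lie within the range of the orange points.

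The mean Ifit1 level was 942 ± 78.5 normalized counts in tributyrin mice and 2282 ± 781 in vehicle mice (SD, n = 4 each). Its log2 fold change, tributyrin over vehicle, was -1.21 (standard error 0.25, 95% interval -1.78 to -0.64), the third lowest of the 248 genes. Ifit3 averaged 7644 ± 500.5 normalized counts in tributyrin mice and 11899 ± 1863 in vehicle mice (SD, n = 4 each), with a log2 fold change of -0.63 (standard error 0.12, 95% interval -0.91 to -0.34). On the linear scale, vehicle mice had a geometric mean 2.31 times that of tributyrin mice for Ifit1 and 1.54 times for Ifit3. Ifit2 averaged 583 ± 41.3 normalized counts in tributyrin mice and 679 ± 249 in vehicle mice (SD, n = 4 each), and its log2 fold change was -0.16 (standard error 0.23, 95% interval -0.68 to 0.37). The interval for Ifit2 thus reaches from a level clearly below that of vehicle mice to one above it, and leaving out vehicle mouse 7 alone gave 0.066.

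None of the 3 passed limma's test at an adjusted p of 0.05, nor did any other gene of the panel (0 of 248, 0%). The limma adjusted p, over all 248 genes by the Benjamini-Hochberg method, was 0.0516 for both Ifit1 and Ifit3 and 0.747 for Ifit2. At an unadjusted limma p under 0.05 there were 31 genes (12.5% of the panel), of which 13 (5.24%) were lower with tributyrin, Ifit1 and Ifit3 among them. For the 2 members whose groups did not overlap, the two-sided exact Mann-Whitney p was 0.0286 each, the smallest that 4 against 4 mice allow, and adjusted over all genes it was 0.394. Both genes passed limma's test in 7 of 18 other settings, in which 6 or 7 panel genes passed, and fitting the variance as a trend with expression gave a limma adjusted p of 0.00887 for Ifit1 and 0.00822 for Ifit3, with 7 genes (2.82% of the panel) passing, each lower with tributyrin. Leaving out vehicle mouse 8, the vehicle mouse closest to the tributyrin mice, gave log2 fold changes of -1.44 for Ifit1 (limma adjusted p = 0.00890) and -0.75 for Ifit3 (limma adjusted p = 0.00565). When any other single mouse was left out, neither gene passed, and the limma adjusted p was 0.0815 to 0.162 for both. Ifit1 and Ifit3 stayed below 0 under each scaling and without any single mouse.

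Counting error was small beside the differences in Ifit1 and Ifit3. The counts of Ifit1 recovered before scaling were 634 to 1153 in tributyrin mice and 1258 to 4076 in vehicle mice. Those of Ifit2 were 390 to 738 with tributyrin and 443 to 1386 with vehicle, and those of Ifit3 were 5243 to 8348 with tributyrin and 8487 to 16892 with vehicle. The relative counting error of Ifit1 averaged 3.46% in tributyrin mice and 2.11% in vehicle mice, and that of Ifit3 averaged 1.21% with tributyrin and 0.891% with vehicle. Over all genes the recovered total was 742068 to 1344723 counts in tributyrin mice and 1035041 to 1494519 in vehicle mice, and the scaling factor applied by the authors was 0.838 to 1.56 with tributyrin and 0.741 to 1.08 with vehicle. The 2 shallowest mice, 9 and 12, were both tributyrin mice. Without them the log2 fold change was -1.15 for Ifit1, -0.70 for Ifit3 and -0.11 for Ifit2. With the scaling factor as a covariate it was -1.05 for Ifit1, -0.62 for Ifit3 and -0.0059 for Ifit2, and the limma adjusted p for Ifit1 and Ifit3 was 0.130.

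The tissue was measured in bulk, where fewer cells of a type and less RNA per cell cannot be told apart. Of 48 markers of conjunctival and immune cell types, 13 were among the genes measured, and none of these was at 0. None of the 10 epithelial and goblet cell markers was among them, so that the labelled tissue could not be checked against its epithelium. The summed level of the 7 measured macrophage and monocyte markers (of 15 listed) was 22378 to 28205 normalized counts in tributyrin mice and 23796 to 28569 in vehicle mice, but Arg1 alone made up most of this sum, with 21193 to 26681 in tributyrin mice and 22449 to 27486 in vehicle mice. The other 6 markers summed to 1178 to 1718 normalized counts with tributyrin and 1083 to 1346 with vehicle. The median log2 fold change over the 7 was 0.16, against 0.055 for all 248 genes. Ccr2, a chemokine receptor of monocytes, had the highest of the 7, at 0.41 (limma adjusted p = 0.321), and was among the 18 panel genes higher with tributyrin at an unadjusted limma p under 0.05. The T cell markers (2 of 6) summed to 56.3 to 74.8 with tributyrin and 51.9 to 73.8 with vehicle, and the dendritic cell markers (2 of 6) to 73.5 to 103 with tributyrin and 73.8 to 85.7 with vehicle. Within this pair, Cd86 overlapped between the groups. Ccr7, a chemokine receptor of migrating dendritic cells and T cells, had 13.6 to 20.3 normalized counts in tributyrin mice and 9.63 to 11.9 in vehicle mice, without overlap (8 genes of the panel, 3.23%, had all tributyrin mice above). Its log2 fold change of 0.64 was the highest of the panel (limma adjusted p = 0.0752). Ccr7 was near the lowest counts measured. The lowest recovered count of the pair was 10, and that of any gene was 5 to 9 in the 8 mice. Scaling factors reached 1.56 in tributyrin mice and 1.08 in vehicle mice, and the part of scaling in the Ccr7 values was not tested. Cxcr2, the 1 neutrophil marker of 5, had 28.5 to 46.7 normalized counts with tributyrin and 24.9 to 32.6 with vehicle. Ccr3, an eosinophil marker and the 1 of 3 measured, had 14.0 to 19.8 with tributyrin and 19.3 to 28.4 with vehicle. The part of these cell types in the IFIT values was not tested.

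Over the 4 mice of each group, the spread of the 3 genes was smaller in tributyrin mice than in vehicle mice, but for Ifit3 this rested on vehicle mouse 8. The coefficient of variation of Ifit1 was 8.34% in tributyrin mice and 34.2% in vehicle mice. It was 7.08% with tributyrin and 36.7% with vehicle for Ifit2, and 6.55% with tributyrin and 15.7% with vehicle for Ifit3. Without vehicle mouse 8 the vehicle value of Ifit3 was 4.07%, below that of the tributyrin mice, and without vehicle mouse 7 the vehicle value of Ifit2 was 19.7%. The vehicle value of Ifit1 was 22.8% to 40.2% when single vehicle mice were left out. The highest vehicle mouse thus had 2.22 times the Ifit1 of the lowest and 2.14 times its Ifit2, although the geometric mean of Ifit2 in vehicle mice was only 1.11 times that in tributyrin mice. The SD of the log2 values was 0.13 with tributyrin and 0.54 with vehicle for Ifit1, 0.10 with tributyrin and 0.50 with vehicle for Ifit2, and 0.096 with tributyrin and 0.24 with vehicle for Ifit3. Ranked by this SD among the 143 genes whose mean reached 100 normalized counts, Ifit1, Ifit2 and Ifit3 stood at 1, 3 and 20 in vehicle mice, but at 56, 65 and 70 in tributyrin mice. The 143 genes as a whole had a median SD of 0.090 with tributyrin and 0.096 with vehicle, and 67 of them (46.9%) had the larger SD in vehicle mice. Whether the spread of the IFIT genes differed between the groups was not tested.

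Since the 3 genes share an inducer, their log2 fold changes were compared with each other through ratios within each mouse, in which the scaling factor cancels. Probes differ in efficiency, so a ratio has meaning only between mice. The ratio of Ifit1 to Ifit2 was 1.63, 1.56, 1.71 and 1.57 in tributyrin mice 9 to 12, against 4.11, 3.68, 2.94 and 2.84 in vehicle mice 5 to 8. It was nearly constant over the tributyrin mice, and the lowest vehicle ratio lay well above the highest tributyrin ratio. The ratio of Ifit1 to Ifit3 was 0.121, 0.138, 0.131 and 0.105 in tributyrin mice and 0.211, 0.153, 0.241 and 0.148 in vehicle mice, again without overlap but with vehicle mice 6 and 8 close to the tributyrin mice. The ratio of Ifit3 to Ifit2 was 13.4, 11.3, 13.0 and 14.9 in tributyrin mice and 19.5, 24.0, 12.2 and 19.2 in vehicle mice. Vehicle mouse 7, which had the highest Ifit2 of all mice, lay among the tributyrin mice for this last ratio.

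**Figure D2:**
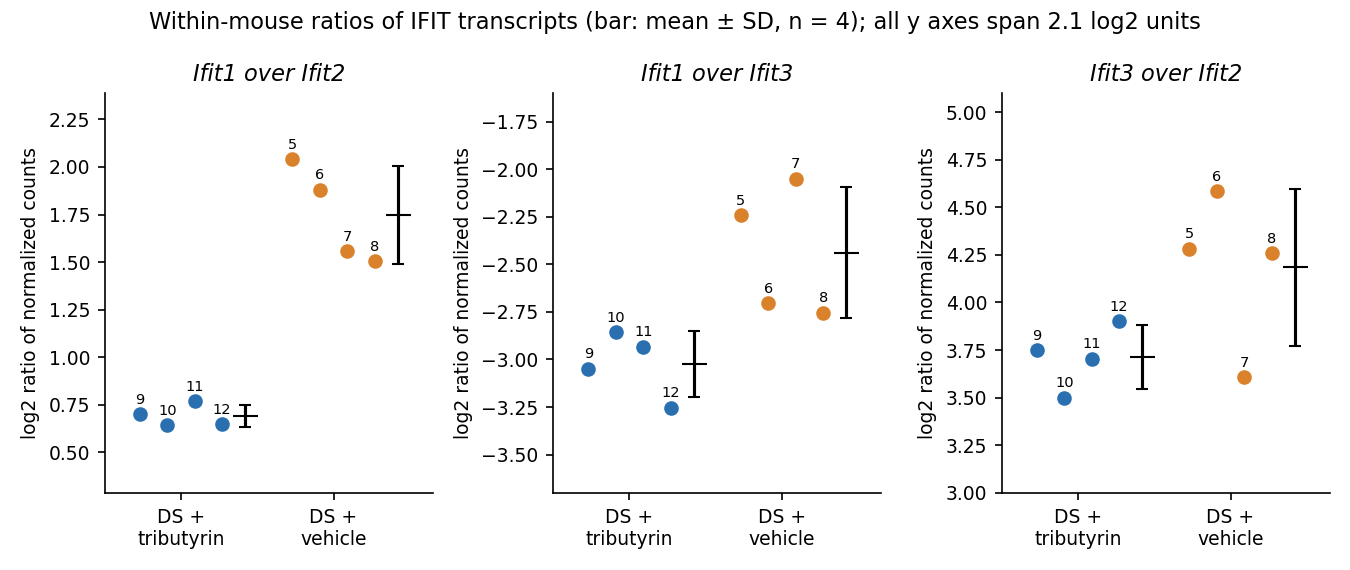
Log2 ratios of the normalized counts of 2 IFIT genes within each mouse (y axes, log2 scale, all of the same length) for 4 tributyrin mice (blue) and 4 vehicle mice (orange), with mean ± SD (n = 4) in black. The Ifit1 over Ifit2 ratios are 0.69 ± 0.059 in tributyrin mice and 1.75 ± 0.26 in vehicle mice and stand far apart, while vehicle mouse 7 overlaps the tributyrin mice for Ifit3 over Ifit2.

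The difference between the groups was larger for Ifit1 than for either other member. Its log2 fold change was lower than that of Ifit2 by a difference of -1.06, and lower than that of Ifit3 by a difference of -0.58 (exact permutation test over all 70 assignments of the 8 mice, two-sided, p = 0.0286 each, the smallest that 4 against 4 allow, and 0.0429 adjusted over the 3 pairs). Ifit3 and Ifit2 differed by -0.47 (exact permutation p = 0.114, adjusted 0.114). That pair was decided by 1 mouse: without vehicle mouse 7 the difference was -0.66 (exact permutation adjusted p = 0.0286). When any 1 tributyrin mouse was left out, the differences stayed at -1.08 to -1.04 for Ifit1 against Ifit2 and at -0.64 to -0.51 for Ifit1 against Ifit3. The adjusted exact permutation p was then 0.0857 for the first pair and 0.0857 to 0.129 for the second, above the threshold. Unadjusted it was 0.0286 for the first pair in each of these fits, the smallest that 35 assignments allow. When any 1 vehicle mouse was left out, the adjusted exact permutation p was 0.0286 to 0.0429 for both pairs. Limma on the same log2 ratios gave adjusted p-values over the 3 pairs of 0.00197, 0.00667 and 0.128.

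None of the 3 pairs of members had a correlation across mice that passed the test, and the correlations were not compared with each other. The vehicle mice had the same order for Ifit1 and Ifit2, mouse 7 above 5 above 6 above 8, and tributyrin mouse 12 was the lowest of its group for both. Ifit3 had other orders, with mouse 5 the highest vehicle mouse and mouse 10 the lowest tributyrin mouse. After each group's mean was removed, the deviations of Ifit1 and Ifit2 had a Pearson r of 0.88 over the 8 mice (exact permutation p over 576 within-group pairings = 0.0920, adjusted over 3 pairs 0.159) and a Spearman rho of 0.83 (exact permutation p = 0.0781, adjusted 0.117). It was 0.97 without vehicle mice 7 and 8, the 2 mice farthest from the median of Ifit1 (exact permutation p = 0.104). It stayed between 0.87 and 0.94 when each mouse was left out.

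For Ifit1 and Ifit3, r was 0.77 (exact permutation p = 0.106, adjusted 0.159) and rho 0.74 (exact permutation p = 0.0660, adjusted 0.117). This relation rests on vehicle mouse 8, which was low for both genes: r was 0.087 without it, and 0.26 without vehicle mice 7 and 8 (exact permutation p = 0.604). For Ifit3 and Ifit2, r was 0.48 (exact permutation p = 0.451, adjusted 0.451) and rho 0.43 (exact permutation p = 0.417, adjusted 0.417). It turned to -0.12 without vehicle mouse 8 and to -0.018 without the 2 farthest mice, tributyrin mouse 10 and vehicle mouse 8 (exact permutation p = 1).

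**Figure D3:**
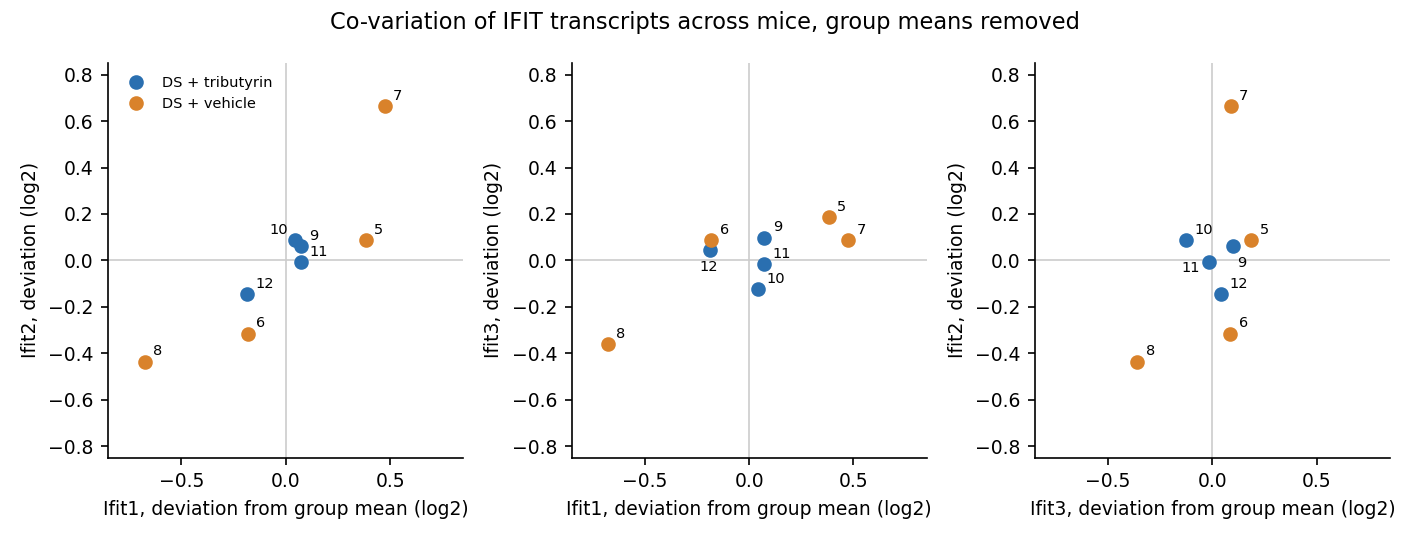
Deviations of each mouse from its group mean (log2 scale, both axes) for the 3 pairs of IFIT genes, with 4 tributyrin mice in blue and 4 vehicle mice in orange, numbered. For Ifit1 and Ifit2 r is 0.88 (exact permutation p = 0.0920, adjusted 0.159), with vehicle mice 5 and 7 close in Ifit1 but apart in Ifit2. For Ifit1 and Ifit3 vehicle mouse 8 lies alone at the lower left and r without it is 0.087.

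Stat2, the STAT protein that joins IRF9 in the complex activated by type I interferon, was the gene with the highest r to Ifit1. The measure was the Pearson r of the same deviations over the 8 mice, computed for the same 143 genes. Among the genes reported, the 5 with the highest r to Ifit1 were Stat2 (0.93), Ifit2 (0.88), Tgfb1 (0.85), which encodes the cytokine TGF-beta 1, Ifit3 (0.77) and Hif1a (0.75), a transcription factor of the response to low oxygen. The r of Stat2 with Ifit1 stayed between 0.86 and 0.96 when each mouse was left out. Among the genes reported, those with the highest r to Ifit2 were Stat2 and Ifit1 (0.88 each), Tgfb1 (0.73), Ptk2 (0.69), which encodes focal adhesion kinase, and Csf1 (0.58), a growth factor of macrophages. The r of Hif1a with Ifit1 was 0.36 without vehicle mouse 8, and the r of Ptk2 and Csf1 with Ifit2 was 0.40 and 0.19 without vehicle mouse 7. With quantile normalization the r of Tgfb1 was lower, at 0.54 with Ifit1 and 0.55 with Ifit2. Ifit3 had another set, made up of Rock2 (0.83), a kinase of the cytoskeleton, the matrix metalloproteinase Mmp3 (0.80), the transcriptional repressor Bcl6 (0.80), Keap1 (0.79), a regulator of the oxidative stress response, and the actin-binding Cfl1 (0.79). Most of these values rest on vehicle mouse 8, without which r was 0.019 for Rock2, -0.59 for Bcl6, 0.17 for Keap1 and 0.58 for Mmp3, while the lowest r of Cfl1 without any 1 mouse was 0.74. With quantile normalization r was 0.29 for Cfl1, 0.41 for Bcl6 and 0.65 to 0.72 for the other 3. For scale, the 140 genes other than the members had a median r of -0.065 with Ifit1 (5th to 95th percentile -0.62 to 0.65), -0.12 with Ifit2 (-0.68 to 0.52) and 0.15 with Ifit3 (-0.47 to 0.75). All genes of a mouse share its scaling factor, so these values describe the 8 mice and carry no test.

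The 23 other interferon genes measured, of 55 listed, did not share 1 direction. None passed limma's test at an adjusted p of 0.05, 11 had a log2 fold change below 0 and 12 above, and their median was 0.046, against 0.055 for all 248 genes (71 of which, 28.6%, were below 0). With quantile normalization 15 were below 0 and 8 above. Most genes above 0 in the reported fit were at low levels. Ifna1, Ifnb1, Ifng, Tlr7, Tlr8, Tlr9, Cxcl9 and Cxcl10 had group means of 16.9 to 61.4 normalized counts. Irf1, Irf3, Myd88 and Mx1 were above 0 at higher levels. Of the genes below 0, Mx2 and Iigp1 had the lowest group means, at 53.3 to 92.1. In 5 of the 23 (Ifi44, Oas1a, Oas2, Irf7 and Stat2) all tributyrin mice lay below all vehicle mice, against 10 of all 248 genes (4.03%). At an unadjusted limma p under 0.05, 6 were lower and 2 higher with tributyrin (5.24% of the panel were lower and 7.26% higher at this p). The ligands, the interferons themselves, were measured at low levels: Ifnb1, the gene of interferon-beta, had 34.9 ± 5.99 normalized counts in tributyrin mice and 31.1 ± 5.38 in vehicle mice, and Ifna1 had 46.1 ± 10.4 with tributyrin and 40.3 ± 5.32 with vehicle (SD, n = 4 each). The log2 fold changes of Ifnb1 and Ifna1, 0.16 and 0.18, turned to -0.031 and -0.015 with quantile normalization. None of the 3 listed receptor genes was measured. The 5 measured genes of nucleic acid sensing, 4 Toll-like receptors and their adaptor Myd88, gave 1 value below 0 and 4 above, with a median of 0.26, which was 0.070 with quantile normalization.

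Among the STAT and IRF factors, the groups did not overlap for Stat2 and Irf7. Stat2 had 2847 to 3112 normalized counts in tributyrin mice and 3401 to 4393 in vehicle mice, with a log2 fold change of -0.40 (standard error 0.09, limma adjusted p = 0.0752). Irf7, a factor that drives type I interferon expression, had 4731 to 5019 in tributyrin mice and 5822 to 6690 in vehicle mice, with -0.33 (standard error 0.06, limma adjusted p = 0.0516). Irf1, a factor downstream of interferon-gamma, had 0.05 (95% interval -0.21 to 0.30), and -0.0097 with quantile normalization. Irf3, which is activated by viral nucleic acid sensing, had 0.16 (95% interval 0.0053 to 0.31, limma adjusted p = 0.372).

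Of the 10 other interferon-stimulated genes, 7 had a log2 fold change below 0 and 3 above, with a median of -0.18, while with quantile normalization 9 were below 0 and 1 above, with a median of -0.19. In the order of log2 fold changes over the panel, Ifit1 came next after Ifi44 and Oas2, and Ifit3 next after Oas1a. Ifi44 had 353 ± 95.4 normalized counts in tributyrin mice and 917 ± 344 in vehicle mice (SD, n = 4 each), with a log2 fold change of -1.35. For Oas2 and Oas1a, which encode oligoadenylate synthetases of the antiviral response, it was -1.22 and -0.79. Each of these 3 genes had groups that did not overlap and a limma adjusted p of 0.0516. Ifit2 and the other 7 stimulated genes had groups that overlapped. The GTPase gene Mx2 had 53.3 ± 6.17 normalized counts in tributyrin mice and 89.3 ± 50.2 in vehicle mice (SD, n = 4 each), with a log2 fold change of -0.55 (95% interval -1.49 to 0.39), next after Ifit3 in the order of the panel. Oasl1, a relative of the oligoadenylate synthetases, had -0.24 (95% interval -0.46 to -0.025, limma adjusted p = 0.366), Ifi27l2a had -0.12 (95% interval -0.69 to 0.46) and the antiviral GTPase Mx1 had 0.10 (95% interval -0.094 to 0.29). Iigp1, an interferon-induced GTPase, had -0.04 (95% interval -0.49 to 0.40). The chemokine genes Cxcl9 and Cxcl10 had 0.20 (95% interval -0.26 to 0.67) and 0.15 (95% interval -0.07 to 0.36), and both turned negative with quantile normalization. Mx2 and Ifi27l2a were also spread over the vehicle mice, with coefficients of variation of 11.6% in tributyrin mice and 56.3% in vehicle mice for Mx2, and 11.8% with tributyrin and 38.4% with vehicle for Ifi27l2a.

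**Figure D4:**
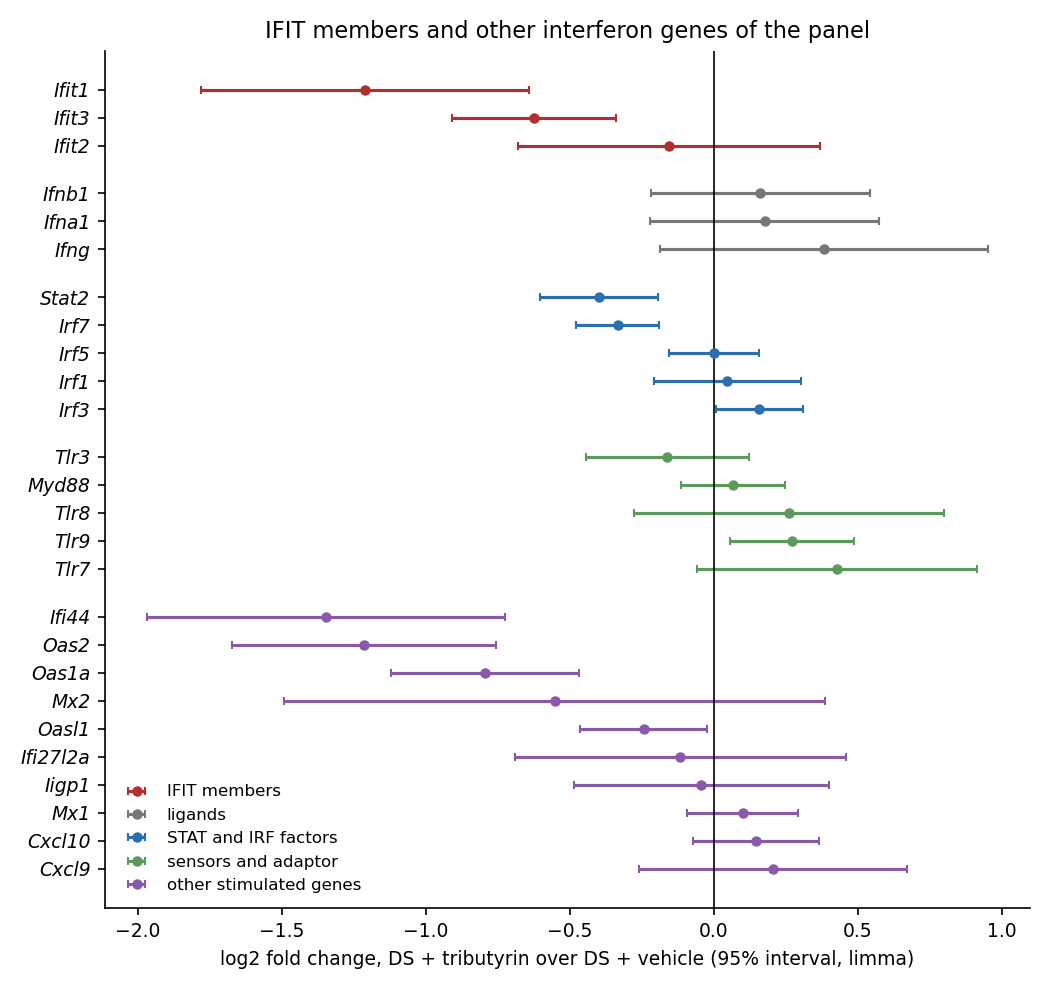
Log2 fold changes, tributyrin over vehicle (x axis, points), with limma's 95% intervals (bars) for the 3 IFIT genes and 23 other interferon genes grouped by role (y axis), from 4 tributyrin and 4 vehicle mice. Ifit1 (-1.21) and Ifit3 (-0.63) lie left of 0 with intervals that do not reach it, as do Ifi44, Oas2, Oas1a, Oasl1, Stat2 and Irf7, while Ifit2 (-0.16) spans 0. Tlr9 (0.27) and Irf3 (0.16) lie right of 0 with intervals that do not reach it.

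Genes with the promoter core were found among those with lower and those with higher values in tributyrin mice. The 13 panel genes with the core in their window had a median log2 fold change of 0.028, and 4 of them had all tributyrin mice below all vehicle mice, namely Ifit1, Ifit3, Oas1a and Stat2. The 172 genes with a window and no match had a median of 0.055, with 3 such genes. Without Ifit1 and Ifit3, whose values were known beforehand, the other 11 genes with the core had a median of 0.047, with 2 such genes. Over the whole panel, which includes genes without a window, 10 of 248 genes (4.03%) had this pattern. A log2 fold change below 0 was found in 6 of the 13 genes with the core, or 4 of the 11, and in 45 of the 172 genes without it. Cxcl10 and Myd88, the chemokine gene and the adaptor of Toll-like receptors, held the core as well, with log2 fold changes of 0.15 and 0.07, and that of Cxcl10 turned negative with quantile normalization. This comparison was not tested.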

How the data were processed

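The 8 mice carry separate labels and 1 nCounter profile each. The authors divided out the geometric mean of 6 reference genes, none of them a row analysed here, worked in ROSALIND, and deposited the table as log2 values of normalized counts with no columns of comparisons. Background subtraction is not stated in the sources read. Raised to base 2, 100% of the deposited values were whole multiples (tolerance 0.001) of a step particular to the mouse, which gave the recovered counts and scaling factors. No 2 columns were identical. Correlations between mice were 0.984 to 0.998 across 143 genes.

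Limma 3.58.1 in R 4.3.3 (lmFit and eBayes, two-sided) was fitted to the log2 values of all genes with group as the only term and no filter, and p-values were adjusted by Benjamini-Hochberg. The exact Mann-Whitney test was run in R. Exact permutation tests were run in Python 3.11.15 with NumPy 2.4.6 and, for ranks, SciPy 1.17.1. Plots used matplotlib 3.10.9. Scripts were tested on simulated data. The paper names Mann-Whitney tests for pairwise comparisons but no test for this platform. Genes named are the 3 members, measured genes of an interferon list by role, and for each member the 5 genes of highest r at a mean of at least 100. Members and lists were chosen with earlier results of these data known. One gene is not reported here: it was passed over in the genes of highest r, where it ranked above some of those named for Ifit1 and above all of those named for Ifit2. Genes named from the promoter search (Cxcl10 and Myd88) and single list genes were picked after their values were seen. Alternatives were a pseudocount of 10, filters at means of 20 and 100, median centring, quantile normalization, a variance trend, a rank test, voom on recovered counts, the scaling factor as a covariate, and fits without single mice or the 2 shallowest. Spread without single mice and macrophage markers without Arg1 were added after the data were seen. Promoters are from RefSeq, GRCm38.p6, and 247 of 248 genes matched its annotation. Protein and probe sequences were not used here, so likeness of the proteins and cross-hybridization between family members were not assessed.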

Additional observations from a re-analysis of the deposited data

Results flagged for a closer look

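Among the 36 groups of 4 mice tested, 4 had 1 mouse far from the other 3, and chance flags about 1 in 20 groups. The groups came from the IFIT genes, their within-mouse ratios and a chosen part, not all, of the other interferon genes measured. Tributyrin mouse 12 was low for Ifit1, with a log2 value of 9.69 against 9.92 to 9.95 in the other tributyrin mice. It was also low for Irf3, at 8.34 against 8.48 to 8.50. Tributyrin mouse 10 was low for Ifnb1, at 4.70 against 5.22 to 5.29. Vehicle mouse 5 was high for Oas2, at 11.01 against 10.26 to 10.38 in the other vehicle mice. Mice 9 and 12 were the shallowest of the 8, and the part of depth in these values was not tested.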

How the results depend on the processing

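The number of panel genes past limma's adjusted p of 0.05 was 0 in the reported fit and with quantile normalization, the rank test, the covariate and without the 2 shallowest mice. A filter at 100, which tests fewer genes, gave 7, as did voom and a variance trend, while median centring, a filter at 20 and a pseudocount of 10 each gave 6. Leaving out single mice gave 0 to 6, with 6 for vehicle mouse 8, 4 for tributyrin mouse 11 and 1 for vehicle mouse 5. Ifit1 and Ifit3 passed in 7 of 18 settings, with log2 fold changes (limma adjusted p) of -1.20 (0.0394) and -0.63 (0.0394) with the pseudocount, -1.21 (0.0448) and -0.63 (0.0448) with the filter at 20, -1.21 (0.0252) and -0.63 (0.0252) at 100, -1.23 (0.0371) and -0.65 (0.0487) with median centring, -1.21 (0.00887) and -0.63 (0.00822) with the trend and -1.25 (0.0195) and -0.64 (0.00776) with voom. The remaining setting in which both passed was the fit without vehicle mouse 8. Without any other single mouse their limma adjusted p was 0.0815 to 0.162. Over all settings the adjusted p spanned 0.00887 to 0.394 for Ifit1, 0.00565 to 0.394 for Ifit3 and 0.609 to 1 for Ifit2. Without single mice the log2 fold changes were -1.44 to -1.05 for Ifit1, -0.75 to -0.56 for Ifit3 and -0.30 to 0.066 for Ifit2, positive only without vehicle mouse 7. The differences of log2 fold changes were then -1.13 to -0.96 for Ifit1 against Ifit2, -0.69 to -0.46 for Ifit1 against Ifit3 and -0.66 to -0.34 for Ifit3 against Ifit2. Without the 2 shallowest mice the first 2 were -1.04 and -0.46 (exact permutation adjusted p = 0.2 each, where 15 assignments cannot give an unadjusted p under 0.0667). Correlations without single mice spanned 0.87 to 0.94, 0.087 to 0.86 and -0.12 to 0.65, and that of Ifit3 with Ifit2 was -0.018 without the 2 farthest mice. The SD of Ifit3 log2 values, tributyrin minus vehicle, was 0.038 without vehicle mouse 8 (added after the data were seen), against -0.15 with it, and -0.20 to 0.038 over single mice left out. With quantile normalization Ifnb1 (-0.031), Ifna1 (-0.015) and Irf1 (-0.0097) turned negative. Irf1 was also negative with the covariate (-0.069), without the 2 shallowest mice (-0.13) and without tributyrin mouse 9 (-0.030, with up to 0.12 without other mice), while Tlr3 was 2.37e-04 without the 2 shallowest mice. A chosen part of the other interferon genes was followed through these settings. Of their values, 173 kept their direction and their side of the threshold, 34 passed an adjusted p of 0.05 that they had missed, and 7 changed sign. For these changes the cause was not tested. No paired analysis was possible because mouse numbers differ between the groups.

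With 4 mice per group an exact test between the groups cannot give a p under 0.0286, and the smallest p of the rank test became 0.394 after adjustment. The exact test of the correlations ran over 576 within-group pairings and has another limit. The SD of the log2 values was 0.54 for Ifit1 and 0.50 for Ifit2 in vehicle mice, against 0.13 and 0.10 in tributyrin mice. Their r thus rests mainly on the 4 vehicle mice. A correlation that did not pass this test is not shown to be absent. Genes at low counts, Ifnb1 and Ifna1 among them, carry the largest counting error.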
